A study of Mus musculus with 6 samples.

Results

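A set of 10 genes that mark the mesothelium and the closely related ovarian surface epithelium were followed in ribosome footprint libraries of ID8 cells. The genes were chosen by symbol, as Msln, Wt1, Upk3b, Upk1b, Lrrn4, Muc16, Bnc1, Gpm6a, Igfbp5 and Pax8, and all 10 were among the 53465 genes of the count table. ID8 is an established mouse cancer line that arose from ovarian surface epithelium. The study asked how translation differs in these cells without NAT10, an enzyme that acetylates cytidines of RNA. It comprised 6 libraries, 3 labelled WT, from cells with a control guide (sgNC), and 3 labelled KO, from cells with a guide against Nat10 (sgNat10) that the design text calls depleted of NAT10. All cells received cycloheximide at 100 µg/mL for 2 minutes to arrest their ribosomes. Neither the site targeted by the guide nor whether the cells were 1 clone or a pool is given in the sources used here. Since no label ties the replicates to separate cultures, a p-value here covers the spread between libraries only, which may be technical. No RNA libraries are used here, so the amount of RNA and its translation are measured together.

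The mesothelium is the flat epithelial sheet that lines the peritoneal cavity, and it continues over the ovary as the ovarian surface epithelium. Both keep keratins beside mesenchymal traits, and both are recognised by membrane proteins such as mesothelin and by the transcription factor WT1. PAX8, in contrast, marks epithelium of the Müllerian duct lineage, such as that of the fallopian tube, and is used to tell that lineage from the surface epithelium.

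Total counts ran from 1687466 to 2148715 in the WT libraries and from 2234305 to 3126208 in the KO libraries. Between counts of 8 and 150, the most common count of a gene was 15, 21 and 39 in WT and 42, 46 and 60 in KO. The search began at 8 counts, so a modal count near 1 read could not have been found. A count divided by the modal count is called molecule equivalents here, which takes the modal count as the reads of 1 molecule. That was assumed and not tested. Of the genes counted in 1 library alone, 41.1% (WT replicate 1) to 67.2% (KO replicate 3) had at most 3 counts. Every KO library had a higher modal count than every WT library, and the part of this in the results below was not tested, beyond a fit on molecule equivalents. The targeted gene Nat10 was not called, with 168, 128 and 292 reads in the WT libraries and 315, 133 and 445 reads in the KO libraries, a log2 fold change (KO minus WT) of -0.074 with a standard error (SE) of 0.48. For that reason every direction given here is that of the libraries labelled KO and not of a verified loss of NAT10. Levels are CPM, the reads of a gene scaled to the depth of the TMM-adjusted library, and a gene was called where edgeR's quasi-likelihood test, adjusted by Benjamini-Hochberg over the 8200 genes that passed the count filter, gave a p below 0.05.

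The first 90 coding bases of the 6 identity genes that passed the filter are printed from the GENCODE M21 models, since initiating and early elongating ribosomes sit on this stretch. Capitals mark runs of at least 5 C, each 3 bases after the last (CNNCNNCNNCNNC, coding strand, any frame), because repeats of a C followed by any 2 bases have been reported around acetylated cytidines.
Msln: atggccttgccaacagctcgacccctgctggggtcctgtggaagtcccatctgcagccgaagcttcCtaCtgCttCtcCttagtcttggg
Upk1b: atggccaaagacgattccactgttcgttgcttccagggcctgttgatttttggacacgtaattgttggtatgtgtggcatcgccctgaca
Upk3b: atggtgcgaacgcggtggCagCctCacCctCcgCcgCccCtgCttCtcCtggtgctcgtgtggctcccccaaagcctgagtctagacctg
Gpm6a: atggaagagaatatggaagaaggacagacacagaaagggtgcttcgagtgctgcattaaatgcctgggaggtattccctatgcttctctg
Wt1: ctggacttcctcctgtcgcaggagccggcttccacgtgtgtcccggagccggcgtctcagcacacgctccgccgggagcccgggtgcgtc
Bnc1: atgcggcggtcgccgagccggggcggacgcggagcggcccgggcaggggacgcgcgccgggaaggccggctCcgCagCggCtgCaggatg
Within the first 300 coding bases such a run was found in 6 of the 10 genes, namely Msln, Wt1, Upk3b, Upk1b, Lrrn4 and Bnc1. It was found in 46.7% of all 21000 coding sequences of at least 300 bases. The runs of Wt1 and Upk1b lie beyond the bases printed. Upk3b and Lrrn4 held the most marked C, 11 and 17. The longest model of Wt1 starts at a CTG codon, with its first in-frame ATG at coding base 205. The other 9 genes start at ATG. No other annotated gene overlapping a member had a count in any library, so no counts of an overlapping partner stood beside those of the members.

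Of the 10 identity genes, 5 were counted in every library, Bnc1 in the KO libraries alone, Muc16 and Lrrn4 in some WT libraries, Igfbp5 once, and Pax8 in none. Of the 6 that passed the count filter, 1 was called, Msln, which rose. Over all genes tested 0.402% were called, 0.183% as higher in KO. The groups did not overlap for Msln, Upk1b and Bnc1, each higher in KO, against 6.94% of all tested genes (7.93% were lower in KO without overlap). The same 3 genes had an unadjusted p under 0.05, as 6.49% of all tested genes did. Bnc1 passed the filter only through its KO counts. Upk1b, Upk3b, Gpm6a and Wt1 did not pass the test.

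**Figure D1:**
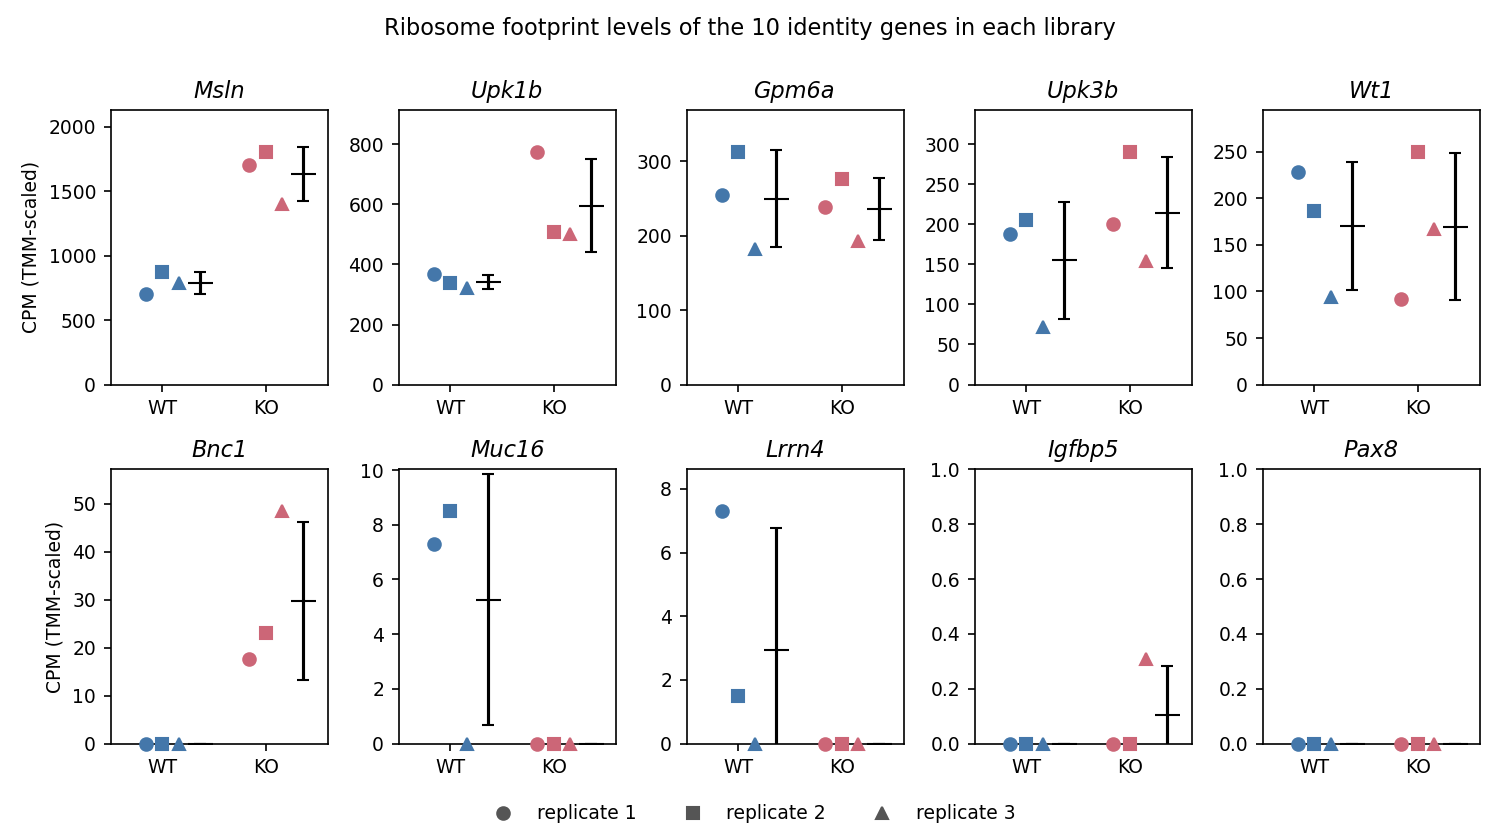
CPM of each identity gene (y axis, from 0, scaled per gene) in the 3 WT (blue) and 3 KO (red) libraries, with the mean and SD (n = 3) in black beside the points. Msln and Upk1b were higher in every KO library than in any WT library, and Gpm6a, Upk3b and Wt1 overlapped. In the lower row Bnc1 was at 0 in WT and at 17.6 to 48.4 CPM in KO, and the other genes were near or at 0.

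Mesothelin (Msln, ENSMUSG00000063011, minus strand of chromosome 17, 25748613 to 25754378 in GRCm38), a GPI-anchored surface glycoprotein that binds the mucin MUC16, was the most abundant member in CPM. It stood at 707, 873 and 787 CPM in the WT libraries and 1701, 1805 and 1403 CPM in the KO libraries. The groups were well apart, with the lowest KO library above the highest WT library. The KO mean was 2.07 times the WT mean (log2 fold change 1.05, SE 0.18, 95% interval 0.67 to 1.43, edgeR adjusted p = 0.0145). The size was kept when single libraries were left out (log2 fold change 0.98 to 1.15), but Msln was no longer called without WT replicate 2 (adjusted p = 0.108), WT replicate 3 (0.107), KO replicate 1 (0.0884) or KO replicate 2 (0.0635). On molecule equivalents the log2 fold change was 0.95 (edgeR adjusted p = 0.000327).

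Muc16 (ENSMUSG00000109564, chromosome 9), the transmembrane mucin that carries the CA125 antigen, had 12, 17 and 0 reads in WT and none in the KO libraries. These lay below the modal counts of their libraries, and the gene was too low to test. Its coding sequence is 25434 bases long, against 1887 for Msln. The highest level measured per kilobase was 0.334 CPM, in WT replicate 2, which is no upper bound for the libraries with 0 reads. Mesothelin was thus abundant in footprints, while its binding partner was near the limit of detection.

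The uroplakins are membrane proteins named for the bladder lining, and Upk1b and Upk3b are used as mesothelial markers in the mouse. Upk1b (ENSMUSG00000049436, minus strand of chromosome 16, 38773184 to 38800328), a tetraspanin, stood at 368, 338 and 320 CPM in WT and 774, 509.5 and 502 CPM in KO. All 3 KO libraries lay above all 3 WT libraries, and KO replicate 1 lay apart from the other two. The log2 fold change was 0.80 (SE 0.23, 95% interval 0.30 to 1.30), which did not pass over all genes in edgeR (adjusted p = 0.304, unadjusted p = 0.00407). DESeq2 called it (adjusted p = 0.0106), in a fit that called 2.85% of genes. Without KO replicate 1 the log2 fold change was 0.57.

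Upk3b (ENSMUSG00000042985, plus strand of chromosome 5, 136038496 to 136046487), a single-pass uroplakin, stood at 188, 205 and 71.7 CPM in WT and 200, 290 and 154 CPM in KO. The groups overlapped, and WT replicate 3 was the lowest library. The log2 fold change was 0.47 (SE 0.40, 95% interval -0.39 to 1.32, edgeR adjusted p = 1.0), and it was 0.12 without WT replicate 3 and 0.17 on molecule equivalents. The partner uroplakins of the bladder, Upk1a, Upk2 and Upk3a, and the paralog Upk3bl had no count in any library. Of 10 urothelial markers 8 were at 0 everywhere, and the 1 that was tested, Gata3, was not called.

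Gpm6a (ENSMUSG00000031517, plus strand of chromosome 8, 54954843 to 55060871), a membrane glycoprotein of the proteolipid family known from neurons and mesothelium, stood at 255, 312 and 183 CPM in WT and 239, 276 and 193 CPM in KO. The KO values lay within the WT range. The log2 fold change was -0.084 (SE 0.29, 95% interval -0.71 to 0.55, edgeR adjusted p = 1.0), an interval from 0.61 to 1.46 of the WT level. Its sign turned positive with library totals as the scaling and without WT replicate 2 or KO replicate 3.

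Lrrn4 (ENSMUSG00000043110, chromosome 2), a leucine-rich repeat membrane protein of mesothelial cells, had 12, 3 and 0 reads in WT and none in KO. All of these were below the modal count of the library concerned. In molecule equivalents the highest WT value was 0.80, so no fold is given.

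Wt1 (ENSMUSG00000016458, plus strand of chromosome 2, 105126529 to 105173616), the zinc finger factor that defines mesothelium and the gonadal ridge, was counted in every library. It stood at 229, 187 and 94.2 CPM in WT and 92.1, 250 and 167 CPM in KO. The 2 lowest libraries, WT replicate 3 and KO replicate 1, came from different groups, and the groups overlapped. The log2 fold change was -0.0036 (SE 0.42, 95% interval -0.89 to 0.89, edgeR adjusted p = 1.0), and its sign depended on the setting. The interval runs from 0.54 to 1.85 of the WT level.

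Bnc1 (ENSMUSG00000025105, minus strand of chromosome 7, 81966672 to 81992292), basonuclin, a zinc finger protein of basal epithelial and germ cells, had no count in WT and 45, 54 and 156 in KO. The KO counts corresponded to 1.07, 1.17 and 2.60 molecule equivalents. If the modal count stands for 1 molecule, a count of 0 allows up to 3 molecule equivalents (27.4 to 67.6 CPM in the WT libraries, counting error only). The KO levels of 17.6, 23.1 and 48.4 CPM were below or within that range. No fold is therefore given. The edgeR test did not call it (adjusted p = 0.419), and DESeq2 did (adjusted p = 0.00253).

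Igfbp5 (ENSMUSG00000026185, chromosome 1), a secreted protein that binds insulin-like growth factors, had 1 count, in KO replicate 3, and 0 elsewhere. Pax8 (ENSMUSG00000026976, chromosome 2), the Müllerian factor, had 0 counts in all 6 libraries, which allows up to 67.6 CPM in the shallowest case, WT replicate 3, on the molecule scale. Other Müllerian and tubal genes were mostly missing too. Of 22 listed, 15 were at 0 everywhere and 2 were tested, the tubulin Tubb4b and the folate receptor Folr1. Neither was called by edgeR, DESeq2 or limma-voom, and none had an unadjusted p under 0.05 in edgeR.

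**Figure D2:**
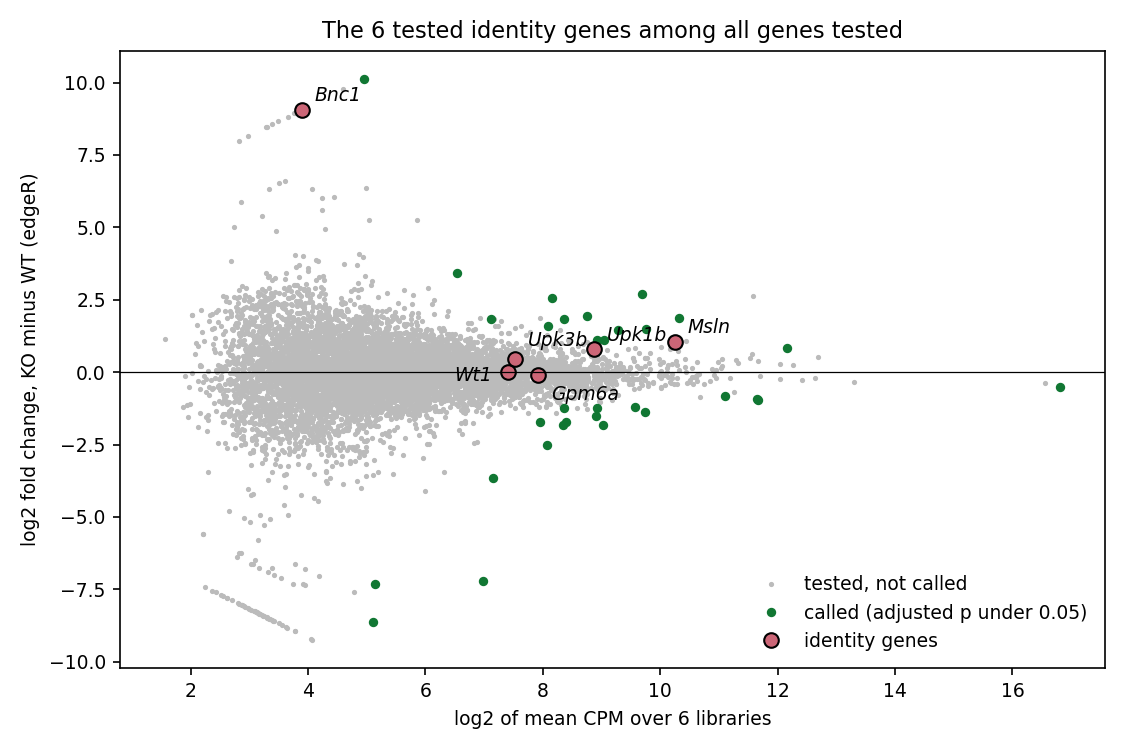
Log2 fold change, KO minus WT (y axis), against the log2 of the mean CPM (x axis) for the 8200 tested genes, with called genes in green and the 6 tested identity genes in red with a black outline. Msln, which is itself called, lies among the abundant called genes above 0, Upk1b and Upk3b lie lower, Gpm6a and Wt1 lie at 0, and Bnc1 lies on the band of genes with no WT count.

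Levels were compared between members per kilobase of coding sequence. Upk1b and Msln were highest and close to each other in WT, at 439 ± 30.8 and 418 ± 44.2 CPM per kilobase (SD, n = 3), a difference within the spread. In KO they stood at 763 ± 199 and 867 ± 111 CPM per kilobase, again with overlapping libraries. Gpm6a followed at 300 ± 77.9 in WT and 283 ± 49.9 CPM per kilobase in KO. Upk3b came next at 187 ± 87.8 and 259 ± 83.7 CPM per kilobase. Within each WT library it lay below Gpm6a, and in KO replicate 2 it lay above. Wt1 was the lowest of the 5, at 110 ± 44.3 and 109 ± 50.8 CPM per kilobase, and lay below Upk3b within each of the 6 libraries. Among the 8083 tested genes with a coding length, Msln lay between percentiles 96.7 and 99.3 in the 6 libraries and Upk1b between 96.8 and 99.3. Wt1 ranged from percentile 73.2 to 90.5.

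Ratios between members within a library do not depend on how libraries are scaled. The count ratio of Msln to Gpm6a was 2.77, 2.80 and 4.31 in WT and 7.11, 6.55 and 7.28 in KO, without overlap. The ratio of Upk1b to Gpm6a was 1.44, 1.08 and 1.75 in WT and 3.24, 1.85 and 2.60 in KO, also without overlap. The ratio of Gpm6a to Upk3b was lower in each KO library, at 1.20, 0.951 and 1.25 against 1.36, 1.52 and 2.55 in WT. The ratio of Msln to Upk1b overlapped, at 1.92 to 2.58 in WT and 2.20 to 3.54 in KO. Over the 10 pairs of these 5 genes, those 3 separated, each at p = 0.1 in a two-sided exact permutation test (0.333 adjusted over the 10 pairs), which is the smallest p that 20 assignments allow. This test can therefore place none of these ratios under 0.05.

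**Figure D3:**
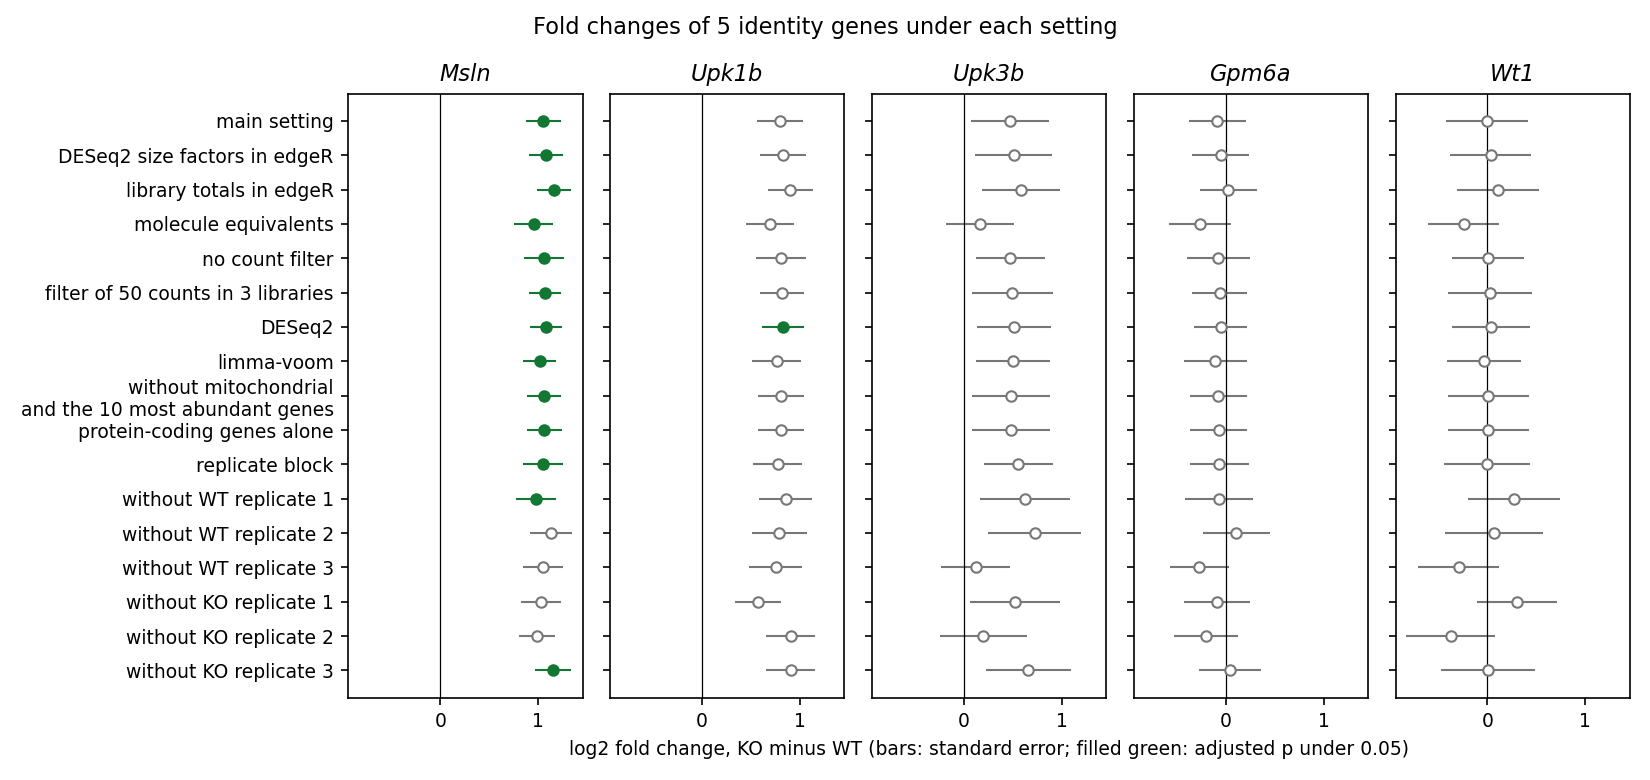
Log2 fold change, KO minus WT (x axis, bars are standard errors), of the 5 identity genes counted in every library, under the main setting and 16 alternatives (y axis); filled green points passed an adjusted p of 0.05. Msln stayed near 1 throughout, Upk1b between 0.57 and 0.90, and Wt1 and Gpm6a fell on both sides of 0.

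By the rule for similar profiles, the genes nearest to Msln over the 6 libraries were Fkbp1a, an immunophilin, and Igfbp7, a secreted relative of Igfbp5. Their centred log2 CPM differed from that of Msln by 0.091 and 0.12 (root mean square), against a median of 0.69 over 1739 candidate genes. Nearest to Upk1b were Atp6ap1, an accessory subunit of the proton pump, and Sorbs2, an adaptor of actin structures (0.12 and 0.14). Gpm6a was nearest to Sub1 and Lmna, the nuclear lamin (0.10 and 0.11). Upk3b was nearest to Zcrb1 and Lrrfip1 (0.13 and 0.17), and Wt1 to Zfp638 and Txnrd1 (0.19 and 0.21). These genes were selected for their likeness over the same 6 libraries, so what their profiles share is no separate finding.

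A wider list of 49 genes of mesothelium and ovarian surface epithelium went both ways. Of these, 36 had a count and 24 were tested. edgeR called 0 as higher and 3 as lower, against 0.183% and 0.22% of all tested genes. In all 9 of the 24 had an unadjusted p under 0.05 (6.49% of all tested genes), and DESeq2 called 5 (2.85% of all). The groups separated for 6 genes upward and 8 downward, against 6.94% and 7.93% of all tested genes. The 8, the 9 and the 24 include the claudin Cldn15, with 30, 27 and 47 reads in WT and none in KO, which passed the filter only through its WT counts. Krt8 (1 read in KO replicate 1) and Igfbp6 (0 in KO replicate 2) are also among the 8 and the 9. Their KO counts alone would not have passed the filter. Thbd, among the 6, had 29, 27 and 1 reads in WT, which alone would not have passed it. The median log2 fold change was -0.43 with 9 of 24 positive, beside -0.016 and 49.0% positive over all genes tested. The 3 that fell were the simple keratins Krt19 (4202 ± 203 CPM in the WT libraries, 2223 ± 32.1 CPM in KO) and Krt18 (WT libraries 496, 647 and 402, KO libraries 93.2, 192 and 178 CPM), and complement C3 (706 ± 86.1 CPM against 248 ± 96.3 CPM; SD, n = 3). In this order they changed by -0.92 (SE 0.13), -1.74 (SE 0.31) and -1.51 (SE 0.28) on the log2 scale, with edgeR adjusted p of 0.0044, 0.0195 and 0.0279. The endocytic adaptor Dab2 stood at -1.06 (SE 0.31) and was called by DESeq2 (adjusted p = 0.0164) but not by edgeR (0.304). Without WT replicate 2 or WT replicate 3 the list had 0 calls, and it had 1 without KO replicate 1 or KO replicate 3. It also had 1 with a filter of 50 counts in 3 libraries, and 5 on molecule equivalents.

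Krt8 and Gata4, also on that list, were chosen after their values were seen. Krt8, the partner of Krt18 in simple filaments, had 251, 173 and 169 CPM in WT and 0.390, 31.7 and 77.9 CPM in KO (log2 fold change -2.42, SE 0.87, edgeR adjusted p = 0.510). Gata4, a transcription factor of the mesothelium and gonad, had 26.1, 29.0 and 23.7 CPM in WT and 57.0, 35.97 and 107 CPM in KO (1.34, SE 0.70, adjusted p = 0.871). The groups of each gene were apart, and neither gene passed the test. Gata4 lay below 3 molecule equivalents in every WT library (27.4, 31.5 and 67.6 CPM) and in KO replicate 2 (59.1 CPM). Krt8 lay below that level in KO replicate 1 (49.2 CPM), where it had 1 read, and in KO replicate 2. On molecule equivalents Krt8 was called (edgeR adjusted p = 0.000129), and its log2 fold change was -1.83 without KO replicate 1 and -3.63 without KO replicate 3. The simple keratins had lower values in the KO libraries, in which Msln was higher.

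**Figure D4:**
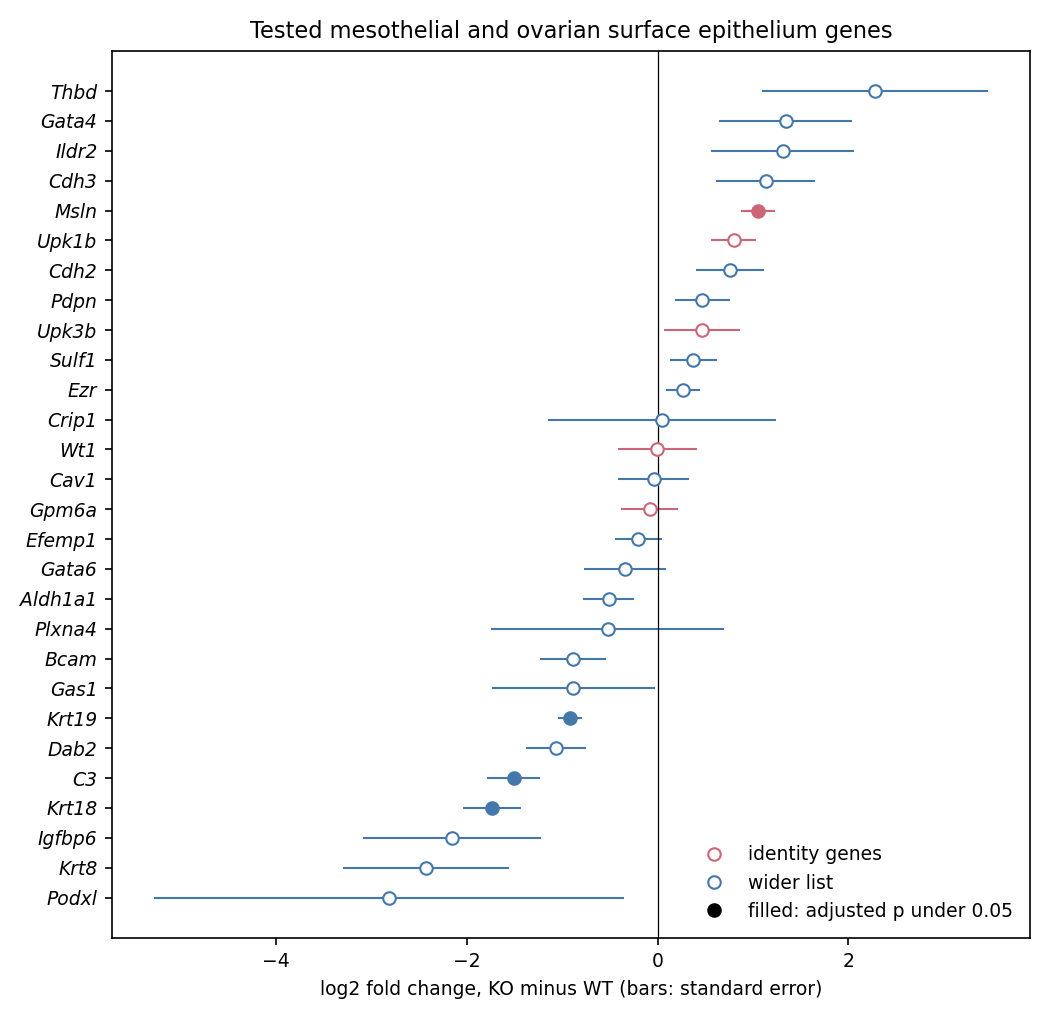
Log2 fold change, KO minus WT (x axis, bars are standard errors), of tested identity genes (red) and of the wider list (blue), ordered by value, with filled points for genes that passed an adjusted p of 0.05. Msln is the filled point above 0, and Krt19, C3 and Krt18 are the filled points below 0; Bnc1 and Cldn15, with no count in 1 group, are not drawn.

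Most paralogs of the members were not counted. Of 32 listed, 23 had no count in any library, among them the mesothelin relatives Mslnl, Strc and Otoa, the mucins Muc1 and Muc4, and Lrrn1 to Lrrn3 and Pax2. Of 8 tested, 1 was called by edgeR as lower (0.22% of all tested genes were), the tetraspanin Tspan8. It averaged 1058 ± 136 CPM over the WT libraries and 457 ± 128 CPM over the KO libraries (SD, n = 3), a log2 fold change of -1.21 with SE 0.23 and an edgeR adjusted p of 0.0279. The list's median was 0.46. DESeq2 and limma-voom each called 2 genes of the list (2.85% and 1.13% of all tested genes). With a filter of 50 counts in 3 libraries edgeR called 0. Tspan8 belongs to the tetraspanins, as Upk1b does, and the 2 had opposite signs. It was not called without WT replicate 2 (adjusted p = 0.205), WT replicate 3 (0.207), KO replicate 2 (0.114) or KO replicate 3 (0.116). Igfbp7 averaged 725 ± 50.3 and 1333 ± 269 CPM in WT and KO (0.88, SE 0.19, adjusted p = 0.0657), and Igfbp6 at 162 ± 36.5 and 36.2 ± 36.8 CPM (-2.15, SE 0.93, adjusted p = 0.683). Igfbp6 was called on molecule equivalents (edgeR adjusted p = 0.00478), and stood at -1.56 without KO replicate 2 and -3.20 without KO replicate 3. Igfbp4 had 1, 20 and 0 reads in WT and 96, 59 and 34 reads in KO, and was not called. It passed the filter only through its KO counts, and the KO counts of Igfbp6 alone would not have passed it.

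The axis of insulin-like growth factors, which IGFBPs hold in check, had 8 tested genes of 19 listed, Igfbp7 and Igfbp6 among them. None was called by edgeR, while 4 had an unadjusted p under 0.05 (6.49% of all tested genes), DESeq2 called 3 (2.85% of all) and limma-voom 2 (1.13% of all). The 4 include Igfbp6, whose KO counts of 90, 0 and 237 alone would not have passed the filter. The 8 also include Igfbp4, which passed only through its KO counts. Htra1, a protease that cleaves IGF-binding proteins, averaged 845 ± 129 CPM over the WT libraries and 1465 ± 106 CPM over the KO libraries (SD, n = 3). Its log2 fold change was 0.79 (SE 0.18), at an edgeR adjusted p of 0.0721. Igfbp7 and Htra1 were both called by DESeq2 and limma-voom, and by edgeR on molecule equivalents, on library totals and with no count filter. Irs2, an adaptor of the insulin and IGF receptors, stood at 107 ± 34.5 and 26.0 ± 9.72 CPM (-2.04, SE 0.56, adjusted p = 0.245), called by DESeq2 (0.00452) and on molecule equivalents (0.0263). The list's median was -0.15. Of 7 partners of the WT1 protein, 6 were tested and none was called by edgeR, DESeq2 or limma-voom; none had an unadjusted p under 0.05 in edgeR, and the median was 0.053.

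Markers of leukocytes and endothelium were low. Of 15 leukocyte markers 10 were at 0 everywhere, and their summed level was at most 14.5 CPM in WT and 1.55 CPM in KO. Endothelial markers summed to at most 5.996 CPM in WT and 2.48 CPM in KO, with Pecam1 and Cdh5 at 0 in WT. Granulosa and steroid cell markers summed to 62.0 to 89.9 CPM in WT and 70.6 to 203 CPM in KO. Of 14 listed, 11 were at 0 in all libraries, among them Foxl2, Amh, Fshr and Cyp19a1. The 3 that were tested, Nr5a1, Star and Fst, were not called by edgeR, DESeq2 or limma-voom. Nr5a1 and Star were counted in every library. Fst, which passed the filter only through its KO counts, had 37, 0 and 0 reads in WT and 141, 63 and 317 reads in KO. Fibroblast and smooth muscle markers summed to 756 to 780 CPM in WT and 968 to 1325 CPM in KO, most of it the proteoglycan Dcn (700 ± 35.6 and 1117 ± 188 CPM), with Pdgfrb, Lum and Postn at 0 in WT. The other tested gene of that list, the collagen Col1a1, went the other way, at 73.0, 85.4 and 42.8 CPM in the WT libraries and 0.390, 16.3 and 1.86 CPM in the KO libraries. edgeR called neither Dcn (log2 fold change 0.67, adjusted p = 0.246) nor Col1a1 (-3.44, SE 1.19, adjusted p = 0.479). DESeq2 called both (adjusted p = 0.00469 and 0.0251), in a fit that called 2.85% of genes. limma-voom, which called 1.13% of genes, called Dcn (adjusted p = 0.0335) and not Col1a1 (0.372). Col1a1 passed the filter only through its WT counts, and its KO counts of 1, 38 and 6 lay below the modal counts of their libraries. The size of its fold is therefore uncertain. The part of the fibroblast and granulosa markers in the results above was not tested. Fewer cells of a type and less RNA per cell cannot be told apart in such bulk libraries.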

How the data were processed

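Ribosome-protected fragments of ID8 cells were sequenced in 6 libraries, grouped by title. Per the labels' protocols, adapters were trimmed with cutadapt, fragments of 25 to 34 nt passed, Bowtie took out those of rRNA and tRNA, and HISAT2 (genome, GRCm38) and Bowtie (transcriptome) placed what was left. featureCounts and DESeq2 appear in the submitters' processing notes. Versions, annotation, strand setting and treatment of duplicates were not given in the sources used here. The authors deposited whole-number counts per Ensembl gene, not normalized. Of 53465 identifiers 53360 matched GENCODE M21, the source of symbols, coordinates and coding sequences.

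Groups were compared by the quasi-likelihood test of edgeR (version 4.0.16, R 4.3.3, robust, TMM, filterByExpr by group) over 8200 genes, with Benjamini-Hochberg adjustment. The fit was also run on counts simulated with the dispersions of these data. That simulation did not include the differences in modal count, and no result here rests on it. Intervals are edgeR's. Alternatives were DESeq2 1.42.0, limma-voom (limma 3.58.1), 2 other scalings, molecule equivalents (kernel bandwidth 3), other filters and gene sets, the replicate block and each library left out. The members, the lists and the rule for named genes (all members; per list the called genes and the 4 smallest p; per member of at least 100 CPM the 2 nearest profiles) were chosen with earlier results of these data known. Not every gene that the rule took is named. Python 3.11.15, pandas 2.3.3, scipy 1.17.1 and matplotlib 3.10.9 made tables, exact tests and plots.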

Additional observations from a re-analysis of the deposited data

How the results depend on the processing

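Msln was called, with the same sign, in all 10 settings that kept the 6 libraries, and was the 1 identity gene called in 9 of them; DESeq2 called 3 (Bnc1, Msln and Upk1b). Leaving out single libraries gave 0 to 1 called identity genes and 6 to 29 called genes over the whole table, against 1 and 33. The count over the whole table was 6 without WT replicate 2 or 3, and 15, 20 and 18 without KO replicates 1, 2 and 3. With all libraries it was 119 on molecule equivalents, 91 with no count filter, 234 with DESeq2 and 93 with limma-voom. With library totals, 27 genes were higher and 16 lower, and the median of all genes shifted by 0.11 (log2). On molecule equivalents the split was 41 higher and 78 lower. Wt1 changed sign to 0.034 with DESeq2's size factors in edgeR and with DESeq2, 0.11 with library totals, 0.0061 with no filter, 0.024 with at least 50 counts in 3 libraries, 0.0071 without mitochondrial and the 10 most abundant genes, and 0.0083 over protein-coding genes alone. Without single libraries it ran from -0.38 to 0.30, and was 0.27 or 0.068 when WT replicate 1 or 2 was left out, and 0.30 or 0.0047 when KO replicate 1 or 3 was. Gpm6a changed sign to 0.028 with library totals, 0.11 without WT replicate 2 and 0.040 without KO replicate 3, within a range of -0.27 to 0.11. The cause of these changes was not tested. With the replicate number as a block, 1 identity gene (Msln, 1.05, adjusted p = 0.023) and 38 genes overall were called. Same-numbered libraries did not deviate together (r = -0.017, -0.0026 and -0.0067 across genes), and 0 of the 6 libraries correlated best with its own number, so the numbers were not treated as pairs. Of the 8200 tested genes 4569 averaged under 3 molecule equivalents, Bnc1 among them; Muc16, Lrrn4, Igfbp5 and Pax8 were too low to test.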

Other observations

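Krt8, Krt18 and Igfbp6, 3 genes of the wider list whose values were lower in the libraries labelled KO, lie close together on chromosome 15. This was noticed after their values were seen, and no test was made. Between Krt7 and Amhr2 (101411043 to 102454633 in GRCm38) 15 genes were tested, of which 13 had a negative log2 fold change, with a median of -0.41 (over all tested genes 49.0% were positive). In 7 of the 15 every KO library lay below every WT library, against 7.93% of all tested genes. The stretch was drawn around Krt8, Krt18 and Igfbp6, which are among the 7, so these counts show nothing beyond the values themselves. The 7 also include Espl1, the separase protease of mitosis (-0.89, SE 0.39), and Myg1 (-0.79, SE 0.32). The translation factor Eif4b, in the same stretch, stood at -0.090 (SE 0.23). Only Krt18 was called in this stretch by edgeR.

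None of the tested genes around the identity genes was called by edgeR, where 0.402% of all tested genes were. Over all tested genes the median log2 fold change was -0.016, with 49.0% positive. The 40 tested genes within 1 Mb of Msln had a median log2 fold change of 0.37, with 22 positive. The 6 around Upk1b had a median of 1.14 with 5 positive, and the 9 around Wt1 a median of 1.08 with 7 positive, while Wt1 itself stood at -0.0036. The 26 around Upk3b had a median of -0.0026. The 4 around Bnc1 and the 2 around Gpm6a were all positive, with medians of 0.58 and 0.79. The 5 around Igfbp5 had a median of -1.04 with 0 positive, and the 1 near Muc16 stood at -1.39. The 8 around Lrrn4 had a median of -0.015 with 4 positive, and the 16 around Pax8 a median of 0.12 with 9 positive.

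KO replicate 3, which held the 1 count of Igfbp5, had 688 genes counted in no other library, against 248 to 382 in each of the other 5 libraries. Of the 688, 462 had at most 3 counts, against 139 to 199 genes in each of the other 5. KO replicate 3 was also the library with the largest total, 3126208.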
